A study of Mus musculus with 4 samples.

Results

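The genes described here are Ptprt, Grip1, Sdk1, Clstn2, Anks1b, Mdga2, Sugct, Prkg1, Cdh4 and Slit3, 10 of the 32285 genes measured in cultured mouse spermatogonia. They were chosen by symbol from an earlier look at these same data, in which they led subgroups of the germ cells, so their levels in germ cells and their relation to Mki67 and to depth are descriptions and carry no test. The cultures were grown from testes of 3 male mice at postnatal day 6, from which cells bearing Thy1 (a surface protein found on undifferentiated spermatogonia) were pulled out with magnetic beads and kept on STO cells, a mouse embryonic fibroblast line used as a feeder layer. The vehicle arm was given PBS, and the EV arm was given extracellular vesicles of postnatal day 7 mouse testis at 1 µg/mL, for 3 days in both arms. Each arm had 2 single-cell libraries, which the labels call biological replicates and the study describes as independent samples. Expression came from vehicle 1, vehicle 2 and EV 1, and the expression of EV 2 was not analysed here.

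Most of these genes are best known from the nervous system, where neurons recognise partners through adhesion molecules on both sides of a synapse and fix receptors in place with scaffold proteins beneath the membrane. Cadherins and immunoglobulin superfamily proteins hold cells together by binding across the gap, secreted Slit proteins steer cells and axons through Robo receptors, and PDZ and ankyrin-repeat proteins tether receptors inside the cell. Spermatogonia, the dividing germ cells at the base of the seminiferous tubule, also contact neighbouring cells of the testis. The working name "neuronal adhesion genes" fits the known role of only part of the list. Ptprt (a receptor tyrosine phosphatase that binds itself on the next cell), Sdk1 (a sidekick protein), Clstn2 (a calsyntenin), Cdh4 (R-cadherin) and Mdga2 (a membrane-anchored protein that binds neuroligins) act at cell contacts. Slit3 is a guidance ligand. Grip1 and Anks1b are scaffold proteins of the postsynaptic side. Prkg1 is a cyclic GMP-dependent protein kinase, and Sugct is a mitochondrial enzyme of glutarate breakdown, so these last genes are no adhesion molecules.

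Where 3 values follow each other, they are those of vehicle 1, vehicle 2 and EV 1 in this order. The libraries held 23686047, 27444797 and 10793232 UMIs, each of which stands for a captured RNA molecule. After filters on cells, 8263, 8637 and 4779 cells remained. A cell was classed as germ where Dazl, Tex15, Stk31 and Epcam gave at least 2 UMIs and more than Col1a1, Col1a2, Sparc and Dcn, and as feeder by the reverse. This gave 4411, 4783 and 227 germ cells (53.4%, 55.4% and 4.75% of kept cells), with medians of 1936, 2091 and 1322 UMIs per cell, and 2357, 2473 and 2508 feeder cells, with medians of 3635, 3896 and 2447.5. EV 1 thus stands apart, and its germ cells held 325012 UMIs against 9445041 and 11013433 in the vehicle libraries. Any 2 libraries shared at most 22 cell barcodes. Germ cell genes that had no part in the classes (Ddx4, Dnd1, Sall4, Mael, Tdrd5 and Taf4b) summed to 522.5, 527.0 and 510.8 CPM (UMIs per 1000000 UMIs of the class) in germ cells and to 16.3, 13.4 and 3.39 CPM in feeder cells. Neuron markers were low in germ cells: the sum of 8 of them was 49.1, 53.5 and 141.5 CPM, led by Syt1 at 16.1, 19.6 and 46.2 CPM, and Stmn2 had no UMI in germ cells of any of the 3 libraries. In feeder cells the same sum was 58.5, 68.4 and 72.4 CPM. Of Sertoli cell markers, Amh had no UMI in germ cells and Sox9 had 22.6, 20.4 and 43.1 CPM (280.8, 297.6 and 275.2 CPM in feeder cells). Of Leydig cell markers, Cyp17a1 and Insl3 had none in germ cells and Star had 6.56, 7.17 and 6.15 CPM (3.66, 2.98 and 2.06 CPM in feeder cells). Endothelium markers summed to 18.2, 19.3 and 27.7 CPM in germ cells and to 6.59, 4.37 and 6.04 CPM in feeder cells. Sums of macrophage and of peritubular myoid markers were lower in germ than in feeder cells of each library.

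All 10 genes are very long, a property that the choice did not use. On GRCm38 (GENCODE M21) they span 456.9 kb (Cdh4) to 1201 kb (Prkg1), with a median of 797.3 kb, while the median over the 9670 genes with at least 200 UMIs in germ cells was 28.3 kb. Of those genes 132, or 1.36%, were at least as long as Cdh4. Exons made up 0.41% (Sugct) to 2.42% (Mdga2) of each gene. Whether UMIs from introns were counted is not given in the sources used here, so levels are compared between cells and libraries and not between genes. The loci lie on 8 chromosomes. Ptprt (chromosome 2, 161521990 to 162661147) and Cdh4 (chromosome 2, 179442431 to 179899373) share one, as do Grip1 (chromosome 10, 119453830 to 120087261) and Anks1b (chromosome 10, 89873509 to 90973300). The others are Sdk1 (chromosome 5, 141241490 to 142215586), Clstn2 (chromosome 9, 97444395 to 98033181), Slit3 (chromosome 11, 35121224 to 35708507), Mdga2 (chromosome 12, 66466060 to 67222549), Sugct (chromosome 13, 16857472 to 17695553) and Prkg1 (chromosome 19, 30564489 to 31765033). Shorter annotated genes lie within or across each of these loci, from 1 at Ptprt and Cdh4 to 10 at Sugct, and on the same strand at 6 of the 10.

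Promoter sequence is shown for Ptprt and Mdga2, as an example of either direction that the genes took between groups of germ cells, described further on. The 250 bases before the RefSeq start on GRCm38.p6 are given 5′ to 3′ on the strand of the gene, with CpG dinucleotides in capitals, for Ptprt at chr2:162661148-162661397 (minus strand) and for Mdga2 at chr12:67222550-67222799 (minus strand).
Ptprt: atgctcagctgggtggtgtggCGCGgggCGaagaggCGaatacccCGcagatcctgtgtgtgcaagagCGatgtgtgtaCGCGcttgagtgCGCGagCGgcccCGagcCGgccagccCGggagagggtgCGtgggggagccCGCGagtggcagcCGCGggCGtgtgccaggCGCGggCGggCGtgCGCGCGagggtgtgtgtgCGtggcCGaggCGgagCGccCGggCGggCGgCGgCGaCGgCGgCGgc
Mdga2: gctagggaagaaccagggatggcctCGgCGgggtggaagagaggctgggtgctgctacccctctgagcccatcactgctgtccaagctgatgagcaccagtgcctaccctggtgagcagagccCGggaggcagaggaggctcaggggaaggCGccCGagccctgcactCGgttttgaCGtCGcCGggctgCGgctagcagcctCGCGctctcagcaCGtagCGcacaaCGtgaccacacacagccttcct
The Ptprt stretch holds 39 CpGs and is 76.4% G and C, and that of Mdga2 holds 15 CpGs and is 65.6% G and C. Over 32851 RefSeq promoters of this length the medians were 6 CpGs and 52.4%. On either strand, both stretches hold GGCGGG (in 32.5% of all promoters), and neither holds TATAAA (12.4%) or CACGTG (6.02%). A match in these letters is a description and no evidence of binding. In all, 9 of the 10 genes matched a RefSeq promoter, Cdh4 being the exception.

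The first question was which cells of the culture carried these transcripts. Ptprt, Grip1, Sdk1, Clstn2, Anks1b, Mdga2, Cdh4 and Slit3 were at least 2-fold higher in germ than in feeder cells of both vehicle libraries, 8 of 10 genes, where 30.2% of 11769 genes were. The same 8 passed that fold in EV 1, for which the share over all genes was not computed, so this count has no reference. The median log2 ratio of germ to feeder cells was 2.92 over the 10 genes and 0.33 over all genes. Since these genes were picked from germ cells, the count describes the list and is not a finding about it. Together the 10 genes had 708.9, 767.8 and 766.1 CPM in germ cells against 186.2, 197.7 and 148.3 CPM in feeder cells, and 63.5%, 67.6% and 56.8% of germ cells had a UMI of at least 1 of them, against 41.1%, 44.4% and 26.6% of the deeper feeder cells.

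Among the adhesion genes, Cdh4, the gene of R-cadherin, had 77.0, 77.2 and 80.0 CPM in germ cells and 3.24, 1.86 and 1.03 CPM in feeder cells. Clstn2 had 90.8, 103.1 and 92.3 CPM in germ cells and 2.93, 3.25 and 1.47 CPM in feeder cells. For both genes the libraries lay close together in germ cells and far below that in feeder cells. Germ cells exceeded feeder cells 31.0-fold, 31.7-fold and 62.6-fold for Clstn2 (exact interval in vehicle 1, 21.3 to 47.0) and 23.7-fold, 41.5-fold and 77.5-fold for Cdh4 (vehicle 1, 16.6 to 35.2). The feeder level of Clstn2 was 3.22%, 3.16% and 1.60% of its germ level, and that of the 6 germ cell genes above was 3.12%, 2.54% and 0.66%. Free RNA, doublets, misclassed cells and expression by feeder cells were not told apart in these shares. At a fixed 1000 UMIs per cell, a Cdh4 UMI was found in 6.28%, 6.27% and 7.87% of germ cells and in 0.35%, 0.33% and 0.17% of feeder cells.

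Sdk1, whose protein joins like cells to like, had 98.04, 105.0 and 113.8 CPM in germ cells and 14.8, 14.8 and 14.9 CPM in feeder cells. Ptprt had 45.9, 50.6 and 76.9 CPM in germ cells and 7.43, 8.18 and 8.84 CPM in feeder cells. Mdga2 had 28.8, 34.2 and 24.6 CPM in germ cells and 3.35, 4.09 and 3.83 CPM in feeder cells. All 3 genes were lower in feeder cells in every library. The feeder level was 13.1% to 15.0% of the germ level for Sdk1, 11.5% to 16.2% for Ptprt and 11.6% to 15.6% for Mdga2. Slit3, a ligand of Robo receptors, had 103.0, 110.8 and 40.0 CPM in germ cells and 6.69, 3.63 and 2.95 CPM in feeder cells, so that EV 1 was low in germ cells.

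The scaffold gene Grip1, whose protein binds AMPA-type glutamate receptors, had 125.3, 132.6 and 144.6 CPM in germ cells and 10.9, 8.18 and 8.55 CPM in feeder cells. Anks1b had 72.4, 78.5 and 141.5 CPM in germ cells and 22.3, 25.0 and 20.6 CPM in feeder cells. Germ cells were higher in all 3 libraries for both, by 11.5-fold, 16.2-fold and 16.9-fold for Grip1 and by 3.25-fold, 3.14-fold and 6.86-fold for Anks1b.

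Sugct and Prkg1 ran the other way. Sugct had 18.6, 21.2 and 15.4 CPM in germ cells and 25.6, 26.8 and 24.8 CPM in feeder cells. Prkg1 had 49.0, 54.8 and 36.9 CPM in germ cells and 89.0, 101.9 and 61.3 CPM in feeder cells. Feeder cells were the higher class in each library, and the ratio of germ to feeder cells was 0.55, 0.54 and 0.60 for Prkg1 and 0.73, 0.79 and 0.62 for Sugct. Both were highest in cells that met neither class rule, with 114.2, 129.4 and 112.8 CPM for Prkg1 and 37.2, 44.3 and 46.8 CPM for Sugct, while for each of the other 8 genes the unclassed cells lay between the feeder and the germ level in all 3 libraries. Fibroblast markers were not absent from the germ class, where 8 of them summed to 359.2, 305.6 and 596.9 CPM against 3629, 3758 and 4039 CPM in feeder cells. Scaling by TMM factors lowered every log2 ratio of germ to feeder cells by 0.34 and left the direction of all 10 genes as given.

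**Figure D1:**
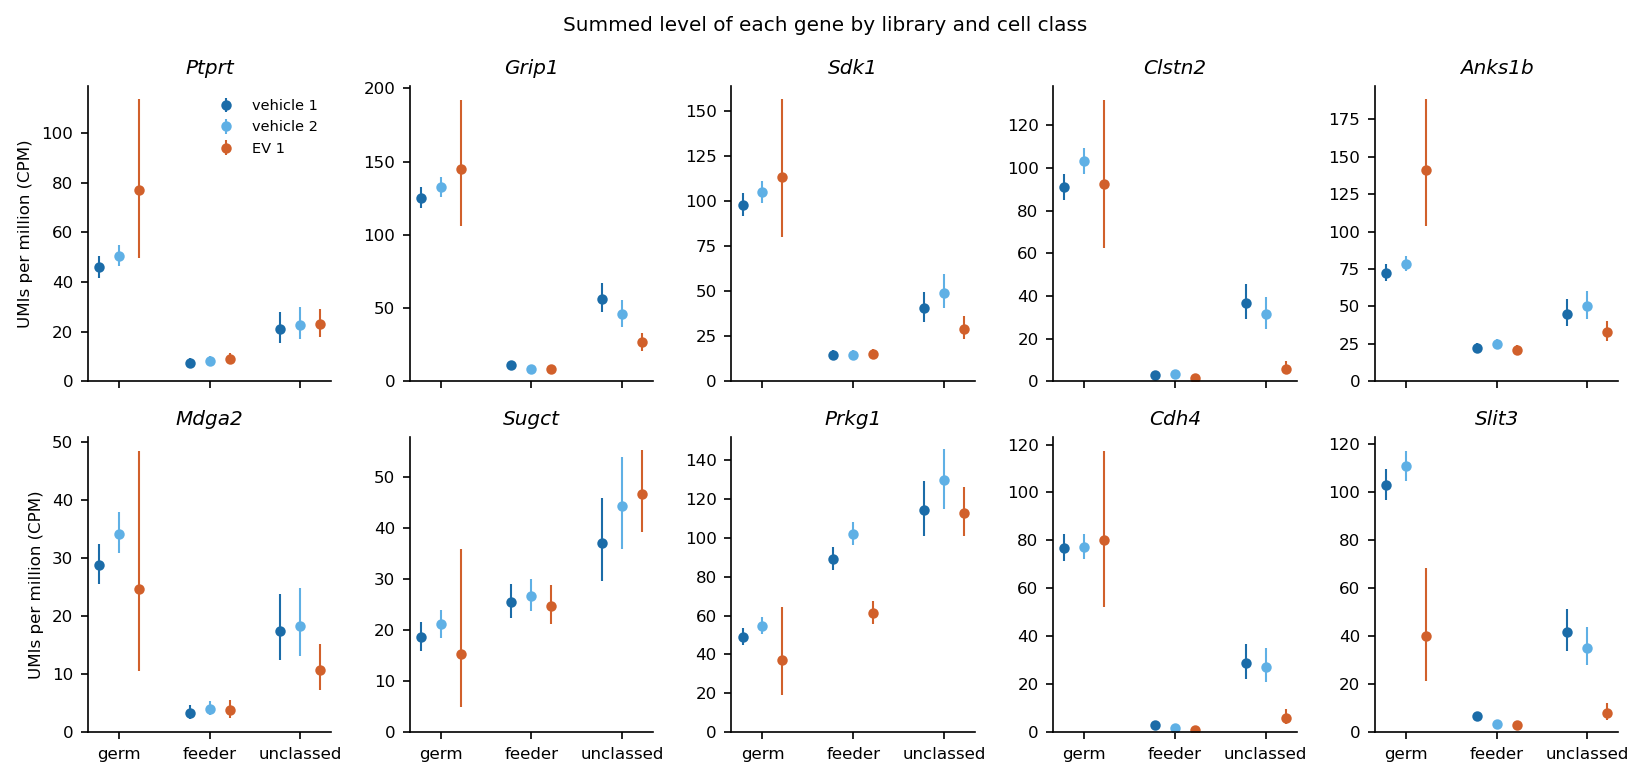
CPM (linear axis from 0) of each gene in germ, feeder and unclassed cells, with 1 point per library (vehicle 1, vehicle 2, EV 1) and exact 95% Poisson intervals as bars. In 8 panels the germ points stand highest, for example at 77.0, 77.2 and 80.0 CPM for Cdh4, while Sugct and Prkg1 are highest in unclassed cells.

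To ask whether whole families were high in germ cells, relatives and partners of the 10 genes were tested between germ and feeder cells of the vehicle libraries. They were listed by family, with earlier results of these data known. Of 54 such genes 33 had enough UMIs for the test, of which 11 were called higher and 14 lower in germ cells by edgeR's quasi-likelihood test, where 24.8% and 25.7% of all 11761 genes were. Genes were looked up by symbol, and a symbol absent from the gene list would count as 0. Anks1a and Robo4 had 0 UMIs in germ and feeder cells of all 3 libraries, and whether they were listed was not checked. DESeq2 gave the same numbers. Germ cells come from mice and STO cells from a cell line, and each library is 1 mixture of both. Whether the feeder class also holds somatic cells of the testis was not tested.

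Of 27 adhesion relatives 18 were tested, and 7 were higher and 7 lower in germ cells. Cadm1, an immunoglobulin superfamily adhesion gene known from spermatogenesis, had 331.2 and 348.7 CPM in germ cells of vehicle 1 and vehicle 2 against 6.90 and 7.53 CPM in feeder cells (log2 ratio 5.22, SE 0.069, edgeR adjusted p = 6.06e-23). Ptprf, another receptor tyrosine phosphatase, was also higher (5.13, SE 0.13), and so was Cdh3, P-cadherin (4.47, SE 0.24). The cadherins Cdh11 (log2 ratio −4.53, SE 0.12) and Cdh13 (−4.20, SE 0.091) and the neuroligin Nlgn1 (−3.83, SE 0.15) were lower in germ cells. Cadherin and phosphatase genes were thus called in both directions.

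Among 6 guidance genes 2 were tested, and they lay on opposite sides. Robo1, a receptor for Slit proteins, had 126.0 and 136.0 CPM in germ cells and 5.02 and 3.35 CPM in feeder cells (log2 ratio 4.65, SE 0.10, edgeR adjusted p = 1.29e-19). Slit2, a ligand like Slit3, had 12.0 and 14.6 CPM in germ cells and 182.3 and 195.2 CPM in feeder cells (−4.16, SE 0.065, edgeR adjusted p = 4.52e-22). Robo1 and Slit3 were therefore on the germ cell side and Slit2 on the feeder side. Robo2, another receptor gene of this family, had too few UMIs for the test, with 0.21 and 0.18 CPM in germ cells and 5.33 and 5.21 CPM in feeder cells.

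Of 12 scaffold and glutamate receptor genes 8 were tested, 2 higher and 5 lower in germ cells. The AMPA receptor gene Gria4 (log2 ratio 2.00, SE 0.15) and the scaffold gene Dlg1 (1.21, SE 0.047) were higher. Magi2, a scaffold gene, had 25.9 and 30.9 CPM in germ cells against 1168 and 1281 CPM in feeder cells (−5.76, SE 0.057, edgeR adjusted p = 2.96e-24), and the AMPA receptor genes Gria3 (−5.28, SE 0.080) and Gria1 (−4.31, SE 0.26) were lower too. Around Prkg1, 3 of 5 genes of cyclic GMP signalling were tested: Pde5a, which breaks cyclic GMP down, was higher (3.13, SE 0.12), and Prkg2, the other cyclic GMP-dependent kinase, was lower in germ cells (−4.22, SE 0.065). Around Sugct, 2 of 4 genes of glutarate and lysine breakdown were tested and neither was called, with log2 ratios of −0.69 (SE 0.17) for Gcdh and 0.46 (SE 0.17) for Dhtkd1.

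Within germ cells, the genes were next read against depth and division. To set all cells to the same depth, 1000 UMIs were drawn at random from each cell that had as many, which kept 4265, 4671 and 178 germ cells. Even at this fixed number, cells that had been deeper before thinning carried more of 8 of the genes. When the cells of each library were split at their median depth (medians of 2562 against 1574 UMIs in vehicle 1, and 2757 against 1669.5 in vehicle 2), Ptprt, Grip1, Sdk1, Clstn2, Anks1b, Prkg1, Cdh4 and Slit3 were higher in the deeper cells of both vehicle libraries, 8 of 10 genes, where 39.7% of 6795 genes with at least 200 UMIs were. At least 1.5-fold in both libraries was reached by 5 of the 10 (Grip1, Sdk1, Clstn2, Anks1b and Cdh4), and by 1.31% of those genes. The median log2 ratio was 0.64 over the 10 genes and 0.03 over all. Depth was part of how the list was set up, so nothing is read from these shares. Sugct, with 198 UMIs, was the only one of the 10 under the 200 UMI minimum.

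Grip1 had the largest ratio of deeper to shallower cells, with 147.2 and 81.6 CPM over both vehicle libraries (1.80-fold, exact interval 1.59 to 2.06). Ptprt differed between the libraries, with 2.01-fold in vehicle 1 and 1.22-fold in vehicle 2. In the pooled cells the other 7 of the 8 lay between 1.496-fold (Slit3, 1.30 to 1.72) and 1.68-fold (Cdh4, 1.42 to 1.99), and all 8 intervals were above 1, as were those of 17.6% of 6795 genes. In EV 1, with 1 to 13 UMIs per gene in the deeper cells, Grip1 (0.81, 0.36 to 1.80), Anks1b (0.92, 0.39 to 2.19) and Cdh4 (0.75, 0.21 to 2.47) were below 1, and the intervals of all 10 genes included 1. Mdga2 had 33.6 and 36.7 CPM over both vehicle libraries (0.92-fold, 0.73 to 1.15) and Sugct 18.1 and 26.2 CPM (0.69-fold, 0.52 to 0.93). In cells as deposited, without thinning, the 10 genes together went from 531.0 CPM in vehicle 1 cells of 1000 to 2000 UMIs to 774.5 CPM at 2000 to 4000 UMIs and 1015 CPM above 4000. In vehicle 2 the same steps were 555.8, 800.2 and 1107 CPM. The order did not extend to the 146 and 112 cells below 1000 UMIs, which had 864.2 and 881.6 CPM.

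Mki67, the gene of the Ki-67 protein of cycling cells, led germ cell subgroups along with these genes in the earlier look, and at 1000 UMIs it was seen in 24.0%, 25.9% and 16.3% of germ cells. The same 8 genes were higher in cells with a Mki67 UMI than in cells without one, in both vehicle libraries, as were 39.5% of 6795 genes and 71.25% of the 80 other genes at least as long as Cdh4. With 0.5 UMI added to each sum, 2 of the 10 genes (Ptprt and Sdk1) reached 1.5-fold in both, as did 0.751% of 6795 genes. Ptprt did so only with that addition, since its plain ratios were 1.54 in vehicle 1 and 1.496 in vehicle 2. Slit3 differed between the vehicle libraries, with 1.03 and 1.497. Sdk1 had 131.3 CPM with and 82.6 CPM without Mki67 in the pooled vehicle cells (1.59-fold, 1.37 to 1.83) and Ptprt 56.0 and 36.8 CPM (1.52-fold, 1.22 to 1.89). The remaining 6 lay between 1.21-fold (Clstn2, 1.03 to 1.42) and 1.39-fold (Prkg1, 1.12 to 1.72). Mdga2 stood at 0.81-fold (0.61 to 1.07) and Sugct at 0.64-fold (0.43 to 0.93). The median log2 ratio was 0.42 over the 10 genes and 0.04 over all. In EV 1, with 0 to 6 UMIs per gene in cells with Mki67, Ptprt had 0 UMIs with and 11 without it, and Grip1 (0.59, 0.11 to 1.93), Anks1b (0.70, 0.13 to 2.33) and Cdh4 (0.40, 0.0093 to 2.63) were below 1, with intervals that included 1, while Clstn2 was at 3.85 (1.10 to 12.7).

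Cells with Mki67 had also been deeper before thinning, with medians of 2277 against 1875 UMIs in vehicle 1 and 2502 against 1990 in vehicle 2. Within cells of 2000 to 4000 UMIs the median log2 ratio with to without Mki67 was 0.14 and none of the 10 genes reached 1.5-fold in both libraries. In cells thinned to 2000 UMIs the median was 0.29 and again none did so, and without thinning it was 0.59. Ptprt had log2 ratios of 0.63 in that band and 0.50 at 2000 UMIs, and Sdk1 0.40 and 0.53. Other genes differed between these readings, with 0.50 and 0.22 for Anks1b, 0.07 and 0.41 for Clstn2 and 0.06 and 0.27 for Grip1.

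The 10 genes were also read against a different set of division genes. Ube2c, Cdc20, Ccnb1, Plk1 and Aurka are transcribed towards mitosis, and 36.3%, 34.9% and 26.4% of germ cells had a UMI of at least 1 of them at 1000 UMIs. Mdga2 had 18.8 CPM in vehicle 1 cells with such a UMI and 40.1 CPM in those without, and 22.7 and 45.7 CPM in vehicle 2. Sugct had 11.6 and 23.9 CPM in vehicle 1 and 11.04 and 31.9 CPM in vehicle 2. Both genes were lower in cells with a mitosis gene in each vehicle library, as were 33.1% of 6795 genes, at 0.48-fold (0.36 to 0.63) for Mdga2 and 0.40-fold (0.27 to 0.58) for Sugct over the pooled vehicle cells. The other 8 genes lay between 1.13-fold (Ptprt, 0.91 to 1.40) and 1.34-fold (Sdk1, 1.17 to 1.54), with 6 intervals above 1, where 8.33% of 6795 genes had one above and 9.79% one below 1. Among these, Ptprt (1.38 and 0.95) and Cdh4 (0.99 and 1.31) went opposite ways in vehicle 1 and vehicle 2. The log2 mitosis ratios of Mdga2 and Sugct were −1.04 and −1.25 over all depths, −1.36 and −1.25 in cells of 2000 to 4000 UMIs and −1.19 and −1.05 in cells thinned to 2000 UMIs. Over the same 3 readings those of Sdk1 were 0.43, 0.16 and 0.11, those of Grip1 0.40, 0.22 and 0.17, those of Prkg1 0.40, 0.25 and 0.13 and those of Cdh4 0.19, −0.11 and −0.07. The other 4 of the 8 genes were above 0 in each reading. In EV 1, 47 cells carried a mitosis gene, and the 6 Mdga2 UMIs and 3 Sugct UMIs of its thinned germ cells were too few to compare. Of the other 8 genes, Ptprt (0.28), Grip1 (0.58), Sdk1 (0.93), Anks1b (0.88), Prkg1 (0.40) and Cdh4 (0.46) were below 1 in EV 1. Clstn2 (2.09) and Slit3 (1.86) were above 1, and the intervals of all 8 included 1.

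**Figure D2:**
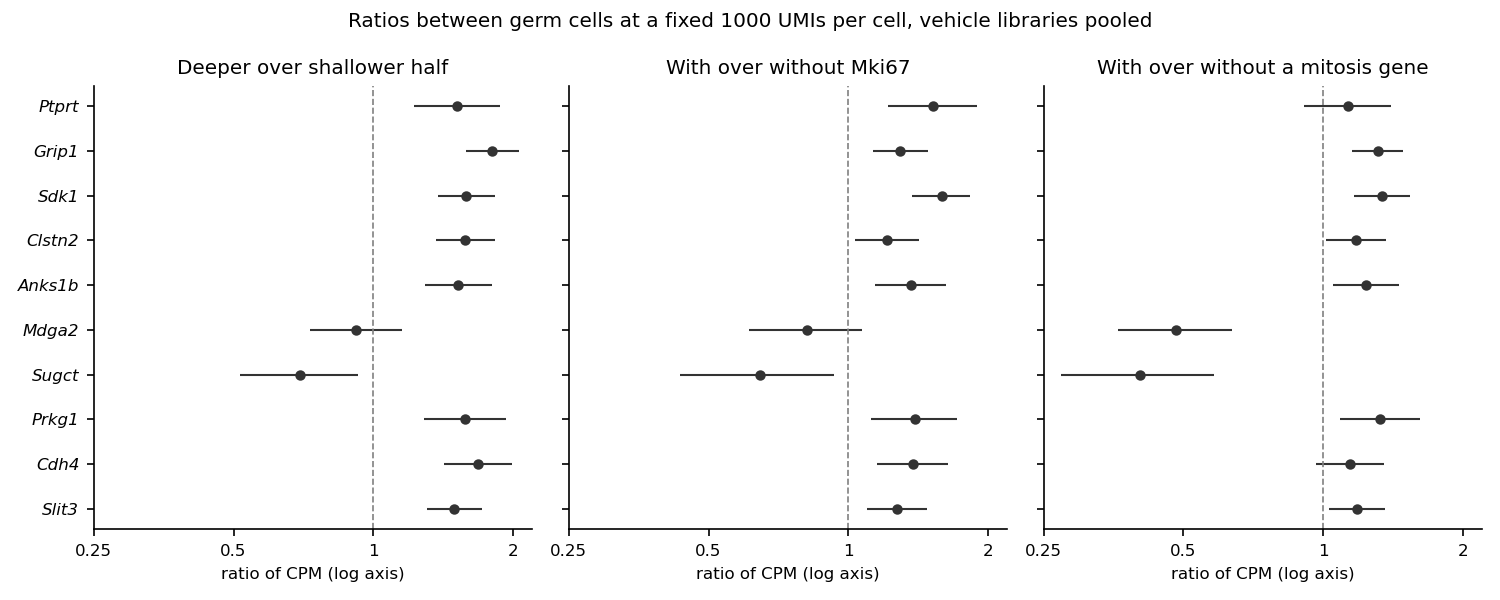
Ratio of CPM between germ cells at 1000 UMIs each (log axis), vehicle 1 and vehicle 2 pooled, for cells above against below the median depth, cells with against without a Mki67 UMI, and cells with against without a UMI of a mitosis gene, with exact 95% intervals that cover counting error only. Mdga2 and Sugct are below 1 in each panel, down to 0.48 and 0.40 on the right, and the other 8 genes lie above 1.

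The genes were also read against other states of the germ cells, again with the share of 6795 genes whose interval in the pooled vehicle cells lay above or below 1. In cells with a UMI of Stra8 or Kit, genes of differentiating spermatogonia, ratios ran from 0.65 (Mdga2, 0.45 to 0.91) to 1.28 (Sdk1, 1.08 to 1.504), and Cdh4 was at 0.77 (0.60 to 0.97). Over all genes 6.0% of intervals lay above and 5.59% below 1. In cells with a UMI of Gfra1, Ret, Zbtb16, Lhx1, Etv5 or Bcl6b, genes of undifferentiated spermatogonia, Sdk1 was lower (0.80, 0.69 to 0.92), and Cdh4 (1.22, 1.04 to 1.44) and Slit3 (1.17, 1.02 to 1.34) were higher. The pooled ratio of Clstn2 (1.16, 1.01 to 1.34) came from vehicle 1 (1.41), as vehicle 2 stood at 0.99. The shares over all genes were 7.96% above and 6.95% below 1. Sdk1 and Cdh4 thus differed in direction in both contrasts in the vehicle cells. In EV 1, from few UMIs, the Stra8 or Kit ratio was 2.84 for Cdh4 (0.65 to 9.83) and 0.37 for Sdk1 (0.0090 to 2.35). That of Slit3 was 10.6 (1.22 to 127), from 3 UMIs with and 2 without. In the undifferentiated contrast of EV 1, Ptprt had 0 UMIs with and 11 without (0 to 0.91), and Slit3 stood at 0.57 (0.012 to 5.80). There Sdk1 (0.57) and Cdh4 (1.72) took the vehicle direction, with intervals that included 1. With UMIs of S-phase histone genes, Sdk1 (1.31, 1.14 to 1.51) and Grip1 (1.16, 1.02 to 1.32) were higher and Mdga2 was lower (0.75, 0.58 to 0.98), where 9.61% of all genes had an interval above and 6.4% below 1. These intervals cover counting error only, and the groups of cells overlap. Cells above the median of Malat1, a nuclear RNA, had more Grip1 (1.52, 1.34 to 1.73), Ptprt, Sdk1 and Prkg1 and less Sugct (0.69, 0.51 to 0.92) in both vehicle libraries. The pooled intervals of these genes left out 1. Cdh4 and Slit3 were also higher and Mdga2 lower in both libraries, with pooled intervals that included 1. Anks1b went opposite ways, at 1.59 in vehicle 1 and 0.98 in vehicle 2. Of all genes 12.5% had an interval above and 8.61% below 1 in this contrast. Between cells above and below the median mitochondrial share, ratios ran from 0.91 to 1.28, and the interval of 1 gene, Mdga2 (1.28, 1.01 to 1.61), left out 1, against 4.52% of all genes above and 9.68% below 1.

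Gene length went with some of these ratios over the whole transcriptome. With the 10 genes left out, the median log2 ratio of deeper to shallower cells was −0.09 over 1391 genes under 10 kb, 0.07 over 2260 genes of 30 to 100 kb, 0.18 over 958 genes of 100 to 300 kb and 0.29 over the 80 genes at least as long as Cdh4. The Mki67 ratio had medians of −0.08, 0.08, 0.16 and 0.19 in the same classes, and the Malat1 ratio of −0.08, 0.06, 0.15 and 0.25. Long genes as a class were thus higher in deeper cells and in cells with Mki67. For the mitosis genes the medians ran the other way and less far (−0.01, −0.02, −0.03 and −0.06), and for germ over feeder cells they had no steady order (0.17, 0.45, 0.36 and 0.08). Of the 80 genes at least as long as Cdh4, 82.5% were higher in the deeper cells of both vehicle libraries. The 8 genes lay above the median of their length class for depth, Mki67 and the mitosis genes, and Mdga2 and Sugct below it. For Malat1 this did not hold for all 8, as Slit3 had log2 ratios of 0.24 in vehicle 1 and 0.14 in vehicle 2. Depth and Mki67 were part of how the list was set up, so nothing is read from their place in the class. All genes at least as long as Cdh4, the 10 included, took 1.34% of UMIs in the deeper and 1.09% in the shallower cells of vehicle 1, and 1.44% and 1.197% in vehicle 2. In cells with and without a mitosis gene the same share was 1.18% and 1.24% in vehicle 1, 1.27% and 1.34% in vehicle 2 and 1.38% and 1.54% in EV 1. The part of gene length, of intronic reads and of nuclear RNA in these ratios was not tested.

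**Figure D3:**
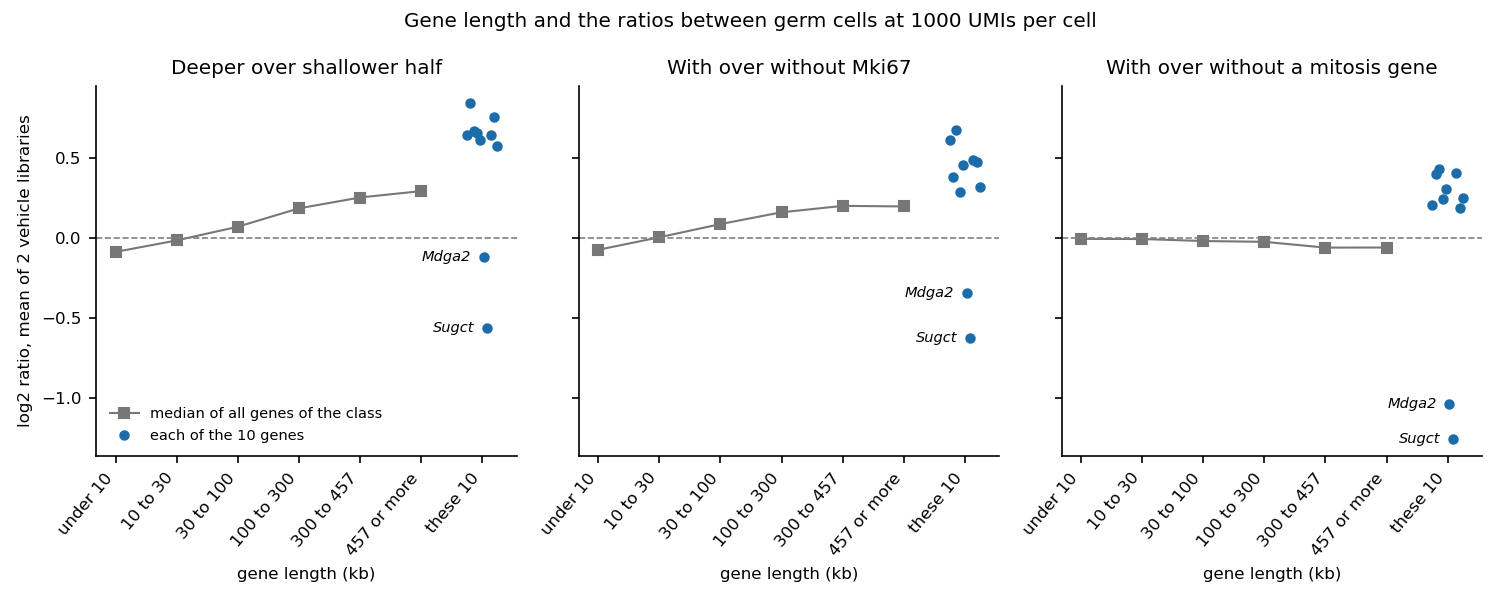
Median log2 ratio over all genes in classes of gene length (grey squares, these 10 genes left out) beside each of the 10 genes (blue points), as means of vehicle 1 and vehicle 2, for the 3 contrasts within germ cells at 1000 UMIs per cell. The grey medians climb from −0.09 to 0.29 for depth and from −0.08 to 0.19 for Mki67 and go from −0.01 to −0.06 for the mitosis genes, with 8 genes above them and Mdga2 and Sugct below.

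Transcripts of the 10 genes were spread thinly over germ cells. At 1000 UMIs per cell, a UMI was found in 1.88% (Sugct) to 9.47% (Grip1) of vehicle 1 germ cells and in 2.31% to 10.4% of those of vehicle 2, and the variance of UMIs per cell was 1.03 to 1.19 times the mean for each gene, where independent counting gives a value of 1. At least 2 UMIs of the list were held by 607, 759 and 37 germ cells. Summed over the 45 pairs of genes, cells with UMIs of both numbered 795, 1024 and 39, which is 1.204, 1.19 and 1.05 times the number for independent genes. In the pooled vehicle cells the pair furthest above was Ptprt with Anks1b (41 cells, 1.79 times) and the pair furthest below was Grip1 with Sugct (9 cells, 0.48 times). Counts this sparse describe the libraries and set no subgroup of cells apart.

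The genes most like the list, outside it, were those with the highest ratio between germ cells with at least 2 and with none of its UMIs, at 1000 UMIs per cell, among 3005 genes, ranked by the lower of the vehicle ratios. They were Unc5d (1.74 in vehicle 1, 1.71 in vehicle 2 and 1.72 in EV 1), a netrin receptor gene, Nedd4l (1.67, 1.72 and 0.94), a ubiquitin ligase gene, and Mki67 (1.70, 1.64 and 2.19). Next came Exoc6b (1.63, 1.68 and 1.84), of the exocyst, Map3k5 (1.60, 1.64 and 1.12), a stress kinase gene, and Kif4 (1.63, 1.57 and 2.40), a mitotic motor gene. Cacna1c (1.56, 1.75 and 5.08), a calcium channel gene, and Arhgap32 (1.53, 1.85 and 1.76) completed the 8. EV 1 gave 3 to 20 UMIs per gene in its cells with at least 2 UMIs of the list, so its ratios are loose. Apart from Mki67 (26.6 kb), these genes were 101.5 to 609.2 kb long, and the cells with at least 2 UMIs of the list had been the deeper ones in the vehicle libraries, with medians of 2291 against 1876 UMIs in vehicle 1 and 2413 against 1990 in vehicle 2.

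The last comparison was between the arms, for which 1 EV library leaves no test and no replicate check. Over all kept cells, Cdh4 had 38.7, 38.8 and 5.09 CPM and Clstn2 had 45.6, 51.7 and 5.69 CPM, so both were low in EV 1, which also had a small share of germ cells. The 10 genes did not all move so far. Anks1b had 46.97, 51.91 and 28.15 CPM, Prkg1 73.97, 82.82 and 75.48 CPM and Sugct 23.77, 25.83 and 30.85 CPM. Within germ cells, the 10 genes together stood at 738.4 ± 41.6 CPM (SD, n = 2) in the vehicle libraries and at 766.1 CPM in EV 1, a ratio of 1.03 to the pooled vehicle cells (exact interval 0.91 to 1.17). The median log2 ratio was 0.02 over the 10 genes and 0.01 over all genes. These ratios join cells of unlike depth, as germ cells of EV 1 were shallower. Among germ cells of 1000 to 2000 UMIs the 10 genes had 531.0, 555.8 and 793.0 CPM (EV 1, 677.9 to 921.9, from 152 cells). They had 774.5, 800.2 and 629.4 CPM at 2000 to 4000 UMIs (EV 1, 440.8 to 871.4, from 23 cells). Below 1000 UMIs the values were 864.2, 881.6 and 674.9 CPM.

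Of the 10 genes, 1 was at least 2-fold lower in germ cells of EV 1, as were 4.49% of 9674 genes. This was Slit3, with 103.0 and 110.8 CPM in the vehicle libraries and 40.0 CPM, from 13 UMIs, in EV 1 (0.37-fold, 0.20 to 0.64). Slit3 was lower in feeder cells as well (0.58-fold, 0.34 to 0.95), where vehicle 2 lay further from vehicle 1 (log2 ratio −0.88) than EV 1 from the vehicle mean (−0.79). Anks1b was higher in germ cells of EV 1, with 141.5 CPM from 46 UMIs against 72.4 and 78.5 CPM (1.87-fold, 1.36 to 2.51), and so was Ptprt, with 76.9 CPM from 25 UMIs against 45.9 and 50.6 CPM (1.59-fold, 1.02 to 2.36). In feeder cells these genes were at 0.87-fold (0.72 to 1.05) and 1.13-fold (0.83 to 1.53). The intervals of the other 7 genes in germ cells included 1, and over all 9674 genes 6.68% lay above and 6.79% below 1. Prkg1 was lower in feeder cells of EV 1, with 61.3 CPM against 89.0 and 101.9 (0.64-fold, 0.57 to 0.71), and stood at 0.71-fold (0.36 to 1.24) in germ cells. Feeder cells of EV 1 were also lower in Cdh4 (0.41-fold, 0.16 to 0.91) and Clstn2 (0.48-fold, 0.22 to 0.93), from 7 and 10 UMIs, and the 10 genes together stood at 0.77-fold there (0.72 to 0.83). Of 9705 genes in feeder cells, 38.2% had an interval below and 16.6% above 1, so 4 of 10 genes below 1 was near the share of all genes.

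Germ cells of EV 1 were shallower than those of the vehicle libraries and had more fibroblast marker UMIs (596.9 against 359.2 and 305.6 CPM) and more neuron marker UMIs (141.5 against 49.1 and 53.5 CPM, from 46 UMIs). Other markers were also higher there, with 67.7 against 34.1 and 29.8 CPM for Sertoli cells, 27.7 against 13.9 and 15.4 CPM for glia, 18.5 against 6.56 and 7.26 CPM for macrophages and 27.7 against 18.2 and 19.3 CPM for endothelium, from 6 to 22 UMIs, while Leydig and peritubular myoid markers were not. In feeder cells neuron markers had 72.4 CPM against 58.5 and 68.4. The part of cell depth, of marker RNA from other cells or of the library itself in these differences was not tested, and with 1 library treatment and library cannot be told apart.

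**Figure D4:**
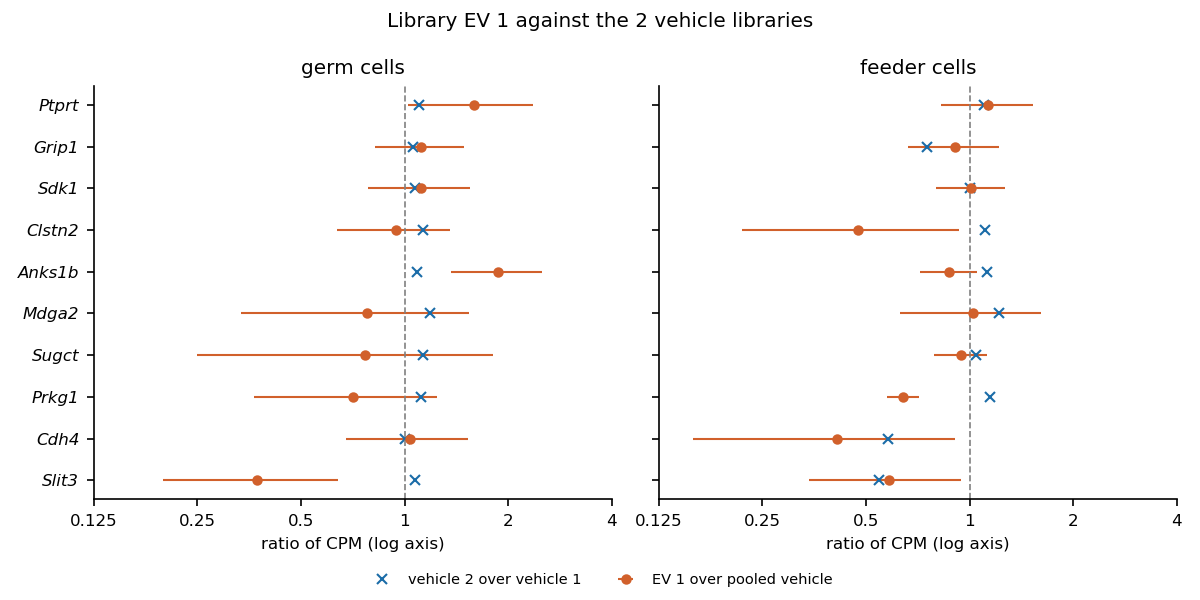
Ratio of CPM of EV 1 to the pooled vehicle libraries for each gene (orange points with exact 95% intervals for counting error) beside the ratio of vehicle 2 to vehicle 1 (blue crosses), in germ cells and in feeder cells, on a log axis. In germ cells Slit3 lies at 0.37 and Anks1b at 1.87, away from 1 and from the crosses, whereas in feeder cells the cross of Slit3 is at least as far from 1 as its point.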

How the data were processed

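The authors sequenced droplet-based single-cell libraries and, per the labels and methods, ran Cell Ranger 7.0.1 with the mm10 genome and GENCODE vM23 gene models. For the 3 libraries with counts used here they deposited, for every barcode called as a cell, the unnormalised UMI count of each gene. Whether intronic reads were counted is not given in the sources used here. Of EV 2 only its 6794 barcodes were used here. Total UMIs were 23686047, 27444797 and 10793232 in vehicle 1, vehicle 2 and EV 1.

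The 10 genes, the lists of relatives and markers, and the contrasts were chosen with earlier results of these data known. The text names the 10 genes, up to 3 called relatives per list and direction, and the 8 genes most like the list. The study's filters on cells were applied (more than 400 genes, fewer than 4000 genes, mitochondrial UMIs below 10%). Scrublet (scanpy 1.11.5) scores were used to remove 0.8% of cells per 1000 cells as doublets. UMIs were summed per library and class and scaled to CPM, with exact Poisson intervals; ratios carry exact conditional 95% intervals, and log2 ratios have 0.5 UMI added. Contrasts within germ cells, and shares given at 1000 UMIs, used cells thinned to 1000 UMIs. The shares of germ and feeder cells with a UMI of at least 1 of the 10 genes used all UMIs unless given at 1000 UMIs. Intervals cover counting error only.

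Germ and feeder sums of the vehicle libraries were compared with edgeR 4.0.16 (R 4.3.3; quasi-likelihood test, library as a term, genes with at least 200 UMIs, Benjamini-Hochberg adjusted p under 0.05 and at least 2-fold). DESeq2 1.42.0 was an alternative. With 2 libraries the p-values measure only the spread between these libraries. The scripts were tested on simulated data. Gene models and lengths came from GENCODE M21, which matched 32158 of 32285 gene IDs. Sums and intervals were computed with scipy 1.17.1 and pandas 2.3.3 under Python 3.11.15, and figures were drawn with matplotlib 3.10.9.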

Additional observations from a re-analysis of the deposited data

How the results depend on the processing

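The count of 8 of 10 genes at least 2-fold higher in germ cells and the single gene lower in EV 1 held under all 9 alternatives run for each. The median log2 ratio of germ to feeder cells was 2.92 and became 2.77 without doublet removal, 2.85 without an upper limit on genes per cell, 3.02 with 3 marker UMIs per class, 2.59 with TMM factors or median-of-ratios size factors and 2.78 as a mean over cells. The Mki67 count of 2 genes, with Ptprt at the threshold, fell to 1 without doublet removal or with 3 marker UMIs and to 0 in cells thinned to 2000 UMIs or of 2000 to 4000 UMIs, where the median log2 ratio, 0.42 as reported, was 0.29 and 0.14. Without thinning that median was 0.59. In EV 1 the median log2 ratio, 0.02, was too close to 0 to give a direction: it was −0.047 without doublet removal, −0.029 without vehicle replicate 1, 0.064 without vehicle replicate 2 and 0.090 with 3 marker UMIs. Leaving out 1 vehicle library gave 2.91 to 2.94 for germ over feeder cells, and 0.37 to 0.46 and counts of 2 to 3 for Mki67. The 25 relatives called became 38 when genes with at least 10 UMIs were tested, which adds genes. The cause of the other changes was not tested. The mitosis ratios at other depths were added after seeing the data. Leaving out a vehicle library from the edgeR fit leaves no residual degrees of freedom, so it was not run. No paired analysis was possible because counts of only 1 EV library were used here, and the test between classes already has the library as a term. The fit without that term called the same number of relatives, 25. Germ cells of EV 1 gave 5 to 47 UMIs per gene, which limits the precision there.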
